A study of Mus musculus with 4 samples.

Results

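The 10 genes followed here belong to the MHC class I presentation pathway and were measured through the maturation of mouse thymocytes with and without the DNA sensor gene Cgas. The set holds the heavy chain genes H2-K1, H2-D1 and H2-Q7, the light chain gene B2m, the peptide transport and loading genes Tap1, Tap2 and Tapbp, the immunoproteasome subunit genes Psmb8 and Psmb9, and the transactivator gene Nlrc5. These 10 of the 33696 genes in the files were chosen by name, with earlier results of these data known. Thymocytes labelled CD4+CCR7+ came from Cd4Cre mice (called WT) and from Cd4Cre Cgasfl/fl mice (called Cgas KO), so both groups carried the Cre transgene, which deletes floxed genes once thymocytes express both CD4 and CD8. Single cells were profiled in 1 droplet library per genotype with a 3′ kit, after red blood cell lysis and a sort for the chemokine receptor CCR7. The sources used here do not state the age, the strain or the number of mice. The series asks how cGAS affects transcription in these cells. With 1 library per genotype there was no test and no replicate check, and every interval is an exact 95% interval that covers counting error only.

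MHC class I molecules show peptides from inside the cell to CD8 T cells. The immunoproteasome cuts proteins into peptides, the TAP transporter moves them into the endoplasmic reticulum, tapasin (Tapbp) holds empty class I molecules at the transporter, and a heavy chain leaves for the surface with β2-microglobulin and a bound peptide. NLRC5 raises transcription of these genes, interferon signals do so too, and in the thymus surface class I is known to be low on double-positive cells and high on mature single-positive cells.

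The promoters of the heavy chain and B2m genes share a short DNA module to which NLRC5 is recruited with other factors, and its central letters are TGACG (part of the X box) and ATTGG (the Y box). RefSeq promoter sequences on GRCm38.p6 cover 8 of the 10 genes; Tap2 and Nlrc5 were not matched. In the 250 bases before the start, on either strand, TGACG stood in 6 and ATTGG in 7 of the 8, against 17.8% and 33.8% of all 32851 promoters. Tap1 and Psmb9 share an upstream stretch, so its TGACG and ATTGG matches are counted for both genes. The pair with TGACG starting 24 or 25 bases before ATTGG, a spacing chosen after these promoters were read, stood in 4 of the 8 (H2-K1, H2-D1, H2-Q7 and B2m) and in 42 of 32851 promoters (0.128%). The windows of 30 bases below show that module in the 4 genes and the matching window of 2 neighbouring class I genes that lack the pair. Capitals mark TGACG and ATTGG, and each is written 5′ to 3′ on the gene's strand.
H2-K1: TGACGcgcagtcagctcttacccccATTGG
H2-D1: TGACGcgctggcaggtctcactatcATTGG
H2-Q7: aTGACGtgtaacagttctcacccctATTGG
B2m: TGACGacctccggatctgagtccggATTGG
H2-Q4: tgacttactggcagttctcacccccATTGG
H2-Q6: atgacctgtaacagttctcacccctATTGG
The windows lie at chr17:34000359-34000388 (minus strand) for H2-K1, chr17:35262993-35263022 for H2-D1, chr17:35439090-35439119 for H2-Q7, chr2:122147609-122147638 for B2m, chr17:35379513-35379542 for H2-Q4 and chr17:35424746-35424775 for H2-Q6. The H2-K1 window is upstream of the start in the promoter table but inside the longest record of the gene.

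A wider view shows what surrounds the module. The 190 bases before H2-D1 (chr17:35262904-35263093) also hold a GGGNNTTCC match, the NF-κB type of motif found in 4.98% of promoters and in 3 of the 8. The 190 bases before B2m (chr2:122147497-122147686) hold a GAAANNGAA match, an interferon-response type of motif found in 7.13% of promoters and in 1 of the 8. Only this exact string was read for that motif. A promoter without a match, such as that of H2-D1, may still hold an interferon-response site. Psmb9 and Tap1 lie head to head on chromosome 17, and the 225 bases between them (chr17:34187331-34187555) form the upstream region of both. Capitals mark the motifs named above, in either orientation.
H2-D1: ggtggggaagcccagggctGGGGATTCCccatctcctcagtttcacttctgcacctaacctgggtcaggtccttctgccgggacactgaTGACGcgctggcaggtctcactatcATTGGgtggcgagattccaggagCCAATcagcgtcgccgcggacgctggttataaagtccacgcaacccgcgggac
B2m: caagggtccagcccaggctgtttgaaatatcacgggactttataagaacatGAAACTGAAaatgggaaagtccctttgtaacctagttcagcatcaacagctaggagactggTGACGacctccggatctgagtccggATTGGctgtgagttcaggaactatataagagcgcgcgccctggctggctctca
Psmb9 to Tap1: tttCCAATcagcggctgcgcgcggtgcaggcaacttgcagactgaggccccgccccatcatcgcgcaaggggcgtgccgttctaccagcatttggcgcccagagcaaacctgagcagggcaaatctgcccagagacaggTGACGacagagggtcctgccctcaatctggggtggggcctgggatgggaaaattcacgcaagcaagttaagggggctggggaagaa
A match is a string in a window and shows neither binding nor use of the site.

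Levels were read in barcodes with at least 2000 UMIs (unique molecular identifiers, each a counted RNA molecule), at least 500 genes and at most 10% mitochondrial UMIs. This kept 12929 barcodes of WT (median 4943 UMIs) and 14381 of Cgas KO (median 4507 UMIs), and 276 barcode sequences occurred in both libraries. Maturation was read from 3 sets that share no barcode. Rag1+ barcodes (457 in WT, 419 in Cgas KO) had a UMI of the recombinase gene Rag1 and none of the egress receptor gene S1pr1. Itm2a+ S1pr1- barcodes (6558 and 7414) had Itm2a without S1pr1 or Rag1, and S1pr1+ barcodes (4442 and 4913) had S1pr1 without Rag1. Foxp3+ barcodes (514 and 378) had a UMI of the regulatory T cell factor Foxp3, Cd8 lineage barcodes (1866 and 1972) had Cd8a or Cd8b1 without Cd4 or Rag1, and Isg15-high barcodes (2186 and 2082) had at least 3 UMIs of the interferon-induced gene Isg15; these overlap the maturation sets. The double-positive marker list summed to 5513 and 5297 CPM (UMIs of a gene per 1000000 UMIs of the set) in Rag1+ barcodes and to 149 and 154 CPM in S1pr1+ barcodes. The mature list went the other way, from 869 and 846 to 4336 and 4562 CPM. The double-positive list contains Rag1 and the mature list contains S1pr1, so part of each contrast follows from the rule that drew the sets. Cgas was at 4.49 CPM in WT against 2.92 CPM in Cgas KO, a ratio of 0.651 (0.547 to 0.773); the sources used here do not name the deleted exons, and 3′ counts do not check the deletion.

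The heavy chains H2-K1 and H2-D1 present peptides to CD8 T cells and were high in the mature sets. H2-K1 (chr17:33996012-34000619) stood at 436, 1052 and 1973 CPM in the Rag1+, Itm2a+ S1pr1- and S1pr1+ barcodes of WT and at 321, 898 and 1692 CPM in those of Cgas KO. H2-D1 (chr17:35263094-35267497) stood at 498, 1022 and 1515 CPM along the same sets in WT and at 396, 902 and 1376 CPM in Cgas KO. Each set was above the one before it in both libraries, with counting intervals that did not overlap. After thinning every barcode to 2000 UMIs, H2-K1 was found in 33.0% of WT Rag1+ barcodes (28.7 to 37.6), 70.3% of Itm2a+ S1pr1- and 95.4% of S1pr1+ barcodes, and in 29.4%, 66.3% and 93.3% in Cgas KO. These shares, and those of H2-Q7 below, keep the sets drawn before thinning. Unthinned, the WT shares were 42.7%, 84.5% and 99.1%, at medians of 3116, 5190 and 4930 UMIs per barcode.

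H2-Q7 encodes a nonclassical class I heavy chain of the Qa-2 type. It stood at 18.9 CPM (43 UMIs), 29.3 CPM and 103 CPM along maturation in WT and at 7.58 CPM (16 UMIs), 21.0 CPM and 66.7 CPM in Cgas KO. The step from Itm2a+ S1pr1- to S1pr1+ was 3.52-fold in WT and 3.18-fold in Cgas KO, against 1.87- and 1.88-fold for H2-K1. H2-Q7 (chr17:35439140-35443773) has near-identical copies in the Q region, so reads may be split between them, and its values are uncertain in that sense. H2-Q6, one of these copies, had 352 UMIs in WT and 179 in Cgas KO over all kept barcodes, against 4385 and 2922 for H2-Q7.

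B2m makes β2-microglobulin, the light chain that every classical class I molecule needs. It stood at 746, 1475 and 1944 CPM along maturation in WT and at 602, 1358 and 1850 CPM in Cgas KO. Most of its increase came before S1pr1 was detected, 1.98-fold in WT and 2.25-fold in Cgas KO, and the step from Itm2a+ S1pr1- to S1pr1+ was 1.32- and 1.36-fold. B2m (chr2:122147687-122153082) lies outside the MHC.

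The 3 transport and loading genes differed from each other. Tap1, a subunit of the peptide transporter, stood at 91.6, 137 and 181 CPM along maturation in WT and at 75.3, 118 and 159 CPM in Cgas KO. Tap2, the other subunit, stood at 218, 203 and 203 CPM in WT and at 246, 183 and 185 CPM in Cgas KO, so it did not climb with its partner. Tapbp, the gene for tapasin, stood at 94.7, 209.6 and 232 CPM in WT and at 85.3, 192 and 217 CPM in Cgas KO, with nearly all of its increase before S1pr1 was detected. Tap1 (chr17:34187556-34197225) and Tap2 (chr17:34204479-34216321) lie close together, with Psmb8 between them, and Tapbp (chr17:33919478-33929290) lies nearer the centromere than H2-K1.

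Psmb8 and Psmb9 encode the inducible catalytic subunits LMP7 and LMP2, which replace the constitutive subunits Psmb5 and Psmb6 in the immunoproteasome. Psmb8 (chr17:34198195-34201454) stood at 467, 488 and 522 CPM along maturation in WT and at 488, 467 and 499.8 CPM in Cgas KO. Psmb9 (chr17:34182030-34187330) stood at 109, 170.2 and 229 CPM in WT and at 109, 159 and 208 CPM in Cgas KO. Psmb8 was thus near its mature level in Rag1+ barcodes already, and Psmb9, head to head with Tap1, rose with Tap1. Nlrc5 (chr8:94434335-94527272), whose protein is the class I transactivator, stood at 39.6 CPM (90 UMIs), 87.8 CPM and 120.2 CPM in WT and at 29.9 CPM (63 UMIs), 79.5 CPM and 108 CPM in Cgas KO.

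**Figure D1:**
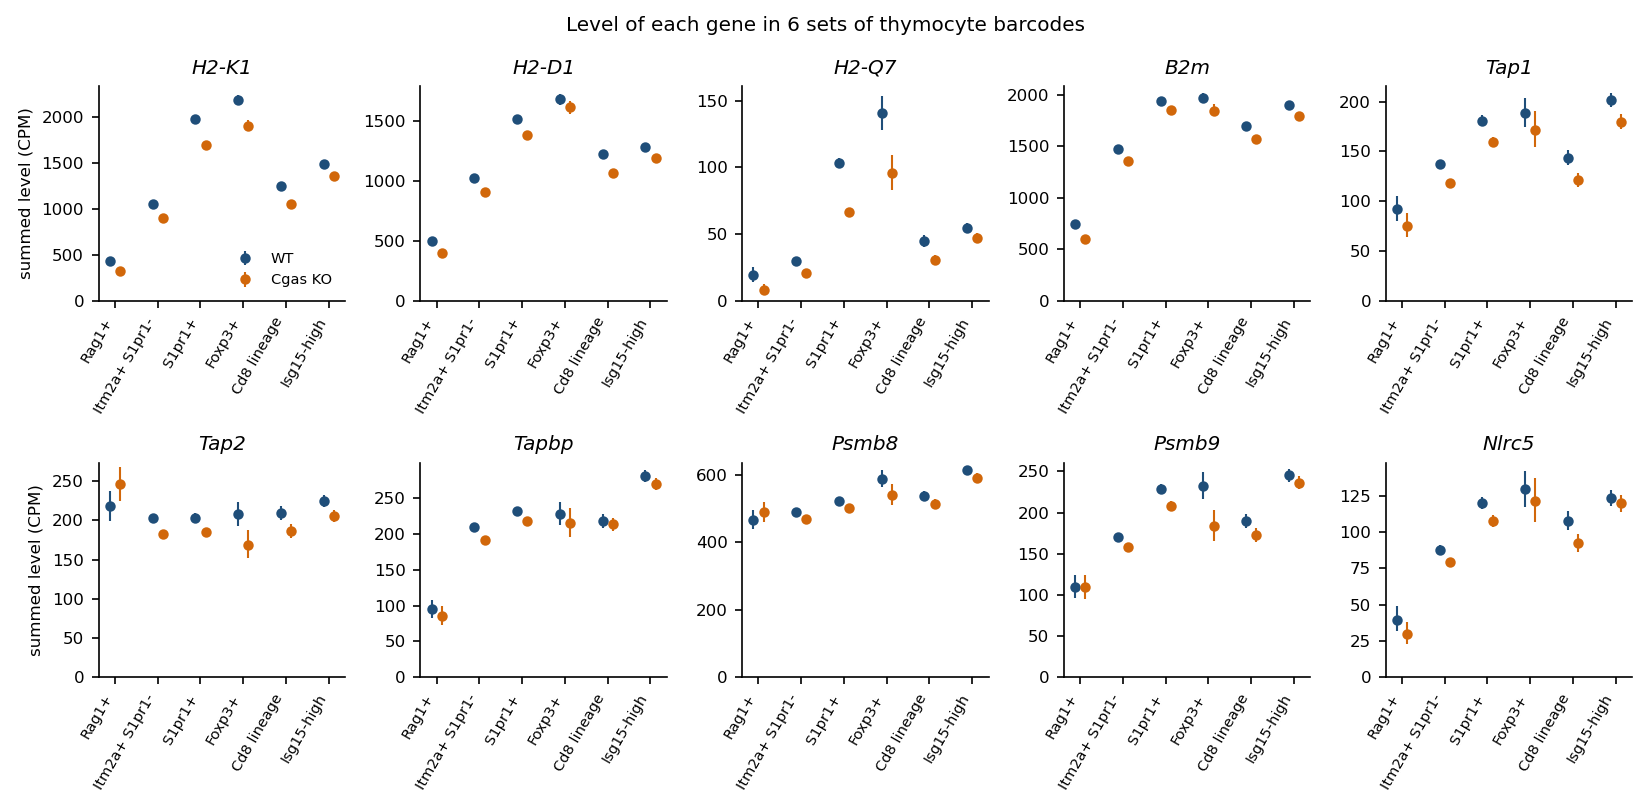
Level of each of the 10 genes (CPM, linear axis from 0) in 6 sets of barcodes of the WT (blue) and Cgas KO (orange) library. Points are summed levels and bars are exact 95% Poisson intervals. H2-K1 climbs from 436 to 1973 CPM from Rag1+ to S1pr1+ barcodes of WT, while Tap2 and Psmb8 stay nearly level.

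Set against Rag1+ barcodes, 8 of the 10 genes were at least 1.5-fold higher in S1pr1+ barcodes in WT, where 13.2% of 10422 measured genes (100 or more UMIs in both sets together) passed that fold, and 8 of 10 did so in Cgas KO, where 14.3% of 10440 did. The same 8 genes passed in both libraries, and Tap2 and Psmb8 passed in neither. H2-Q7 had the highest ratios, 5.45 in WT (4.03 to 7.55) and 8.80 in Cgas KO (5.4 to 15.4). H2-K1, whose intervals overlapped those of H2-Q7, followed at 4.53 (4.25 to 4.83) and 5.27 (4.88 to 5.69), H2-D1 at 3.04 and 3.48, and Nlrc5 at 3.03 and 3.61. The ratios of B2m were 2.61 and 3.07, those of Tapbp 2.45 and 2.55, those of Psmb9 2.09 and 1.91, and those of Tap1 1.97 (1.72 to 2.28) and 2.12. Neighbours in this order from Nlrc5 to Tap1 often had intervals that overlapped, whereas H2-K1 stood clear of H2-D1 and Nlrc5 in WT. Psmb8 had ratios of 1.12 (1.05 to 1.19) and 1.02 (0.962 to 1.09), and Tap2 had 0.933 (0.851 to 1.03) and 0.752 (0.687 to 0.825). Several of these ratios moved by over 1.5 times under other settings, which changes the order of the genes. After thinning to 2000 UMIs, Psmb9 was at 3.99 in WT and 2.88 in Cgas KO, H2-Q7 at 8.45 in WT and Nlrc5 at 2.33 in Cgas KO. Here and below, ratios and counts after thinning are over sets drawn again from the thinned counts. Their barcodes differ from those of the main sets. Without barcodes that had an Isg15 UMI, H2-K1 was at 7.57 in WT and 7.98 in Cgas KO and H2-Q7 at 13.4 in Cgas KO. H2-K1 was at 8.07 in Cgas KO with 2 UMIs asked of a positive barcode, and Nlrc5 at 2.39 in Cgas KO without barcodes that had UMIs of antigen-presenting cell genes. The median log2 ratio of the 10 genes was 1.34 in WT and 1.48 in Cgas KO, against -0.18 and -0.15 over all measured genes. All 10 genes were also found outside cells: in barcodes with at least 20 and under 200 UMIs, which hold mostly free RNA, H2-K1 stood at 1730 CPM in WT against 1322 CPM in Cgas KO, above its level in Rag1+ barcodes, and what part of the Rag1+ level it makes up was not tested.

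Barcodes without Rag1 were also graded by their S1pr1 UMIs. In WT, H2-K1 was at 1115 CPM without an S1pr1 UMI, 1846 CPM with 1 and 2047 CPM with 2, and then held at 2051 CPM with 3 and 2075 CPM with 4 or more. In Cgas KO, H2-K1 was at 949, 1585 and 1704 CPM over the first steps. It still rose to 1805 CPM with 3 and was at 1787 CPM with 4 or more. H2-Q7 in WT went from 33.7 CPM without S1pr1 to 93.4, 106, 108 and 116 CPM over the same steps. In Cgas KO it went from 23.1 CPM to 57.1, 61.7, 78.8 and 80.1 CPM, so both libraries had their largest step between 0 and 1 S1pr1 UMI.

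Other class I genes moved in both directions. Of 10 measured, 6 were at least 1.5-fold higher in S1pr1+ than in Rag1+ barcodes and 2 were lower, in WT and in Cgas KO alike. H2-T23, which encodes the Qa-1 heavy chain, rose from 267 to 507 CPM in WT and from 188 to 432 CPM in Cgas KO, and H2-Q4 rose 2.13- and 2.45-fold. H2-M3, a heavy chain that presents formylated peptides, rose 3.05-fold (2.22 to 4.30) and 1.83-fold (1.40 to 2.43). H2-Q2 fell from 70.5 to 3.69 CPM in WT and from 57.3 to 4.18 CPM in Cgas KO, and Mr1, which presents vitamin B metabolites to MAIT cells, fell from 40.1 to 4.59 CPM and from 47.4 to 4.69 CPM. H2-Q6 is among the 6 with ratios of 3.02 (1.36 to 8.32) and 8.05 (1.41 to 320.9), but it had 6 UMIs in Rag1+ barcodes of WT and 1 in those of Cgas KO.

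The proteasome genes did not divide cleanly by type. The 14 genes of the constitutive core all had ratios below 1 in both libraries, where 63.7% and 61.0% of all measured genes did. Of the 14, 3 in WT and 4 in Cgas KO were at least 1.5-fold lower in S1pr1+ barcodes, against 20% and 20.6% of all measured genes. Psma6 fell from 273 to 144 CPM in WT and from 265 to 141 CPM in Cgas KO, Psmb7 fell to ratios of 0.636 and 0.599, and Psmb6, the subunit replaced by Psmb9, fell to 0.653 and 0.617. Psmb5, the subunit replaced by Psmb8, had ratios of 0.735 in WT and 0.666 in Cgas KO. Of 6 other measured immunoproteasome and activator genes, 3 rose in each library: Psmb10, the remaining inducible subunit, 1.77- and 1.66-fold, and the activator genes Psme1 1.71- and 1.74-fold and Psme2 1.89- and 2.09-fold. The other 3 of the 6 had ratios below 1 in each library. Psmb8 thus differed from Psmb9 and Psmb10, whose intervals lay wholly above its own in WT. Of 13 loading and trimming genes, none passed in WT and 1 in Cgas KO, Erap1, the aminopeptidase that trims peptides, with ratios of 1.49 and 1.64.

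Regulators of the class I genes included several that followed the same course. Of 18 measured, 5 rose (Irf1, Irf7, Irf9 and Nfkb1 among them) and 3 fell (Rfxap, Nfyc and Creb1) in WT, and 6 rose (these 4 and Irf2 among them) and 2 fell (Irf8 and Nfyb) in Cgas KO; those not in the naming rule are named after their values were seen. Irf7 rose 3.44-fold in WT and 4.47-fold in Cgas KO, Irf9 2.47- and 2.71-fold and Irf1 1.95- and 1.80-fold. Both Irf7 and Irf9 act in the type I interferon system. Of 7 measured genes for interferons and their receptors and kinases, 2 rose (Ifngr2 and Jak1) and 1 fell (Ifngr1) in WT, and Tyk2 rose besides in Cgas KO. The 2 chains of the interferon-γ receptor went apart, with Ifngr1 falling from 318 to 123 CPM and from 319.9 to 128 CPM, and Ifngr2 rising 2.10- and 1.71-fold. Isg15 itself was at 123 CPM in Rag1+ and 248 CPM in S1pr1+ barcodes of WT and at 94.3 and 237 CPM in Cgas KO, so an interferon-induced gene rose along the same sets.

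In Isg15-high barcodes the order of the genes was different. Set against barcodes with no Isg15 UMI, 2 of 10 genes (Tap1 and Tapbp) were at least 1.5-fold higher in WT, where 2.27% of 11395 measured genes passed, and 4 of 10 (Tap1, Tapbp, Psmb9 and Nlrc5) in Cgas KO, where 2.67% of 11402 did. Tap1 rose from 131 to 201 CPM in WT, 1.54-fold (1.47 to 1.61), and from 112 to 179.8 CPM in Cgas KO, 1.60-fold. Tapbp rose 1.54- and 1.56-fold. Psmb9 had ratios of 1.46 (1.41 to 1.52) and 1.51 (1.45 to 1.58) and Nlrc5 of 1.34 (1.27 to 1.42) and 1.52 (1.43 to 1.61), so the intervals of the 2 libraries overlapped for Psmb9 and not for Nlrc5. After thinning to 2000 UMIs the WT count was 4 as well, and with a fold of 2 it was 0 in both libraries. Psmb8, nearly level along maturation, was at 1.36 and 1.34, and B2m at 1.26 and 1.28. H2-K1, which climbed most along maturation after H2-Q7, was at 1.10 (1.08 to 1.11) and 1.18 (1.16 to 1.2). The median log2 ratio of the 10 genes was 0.38 in WT and 0.41 in Cgas KO, against -0.05 in each over all measured genes. Barcodes with Isg15 were also deeper, at medians of 5886 and 5429 UMIs against 4608 and 4184. The dendritic or myeloid list summed to 239 against 148 CPM in WT and to 157 against 151 CPM in Cgas KO, and the double-positive list to 362 against 636 CPM and to 321 against 595 CPM; their part in these ratios was not tested.

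**Figure D2:**
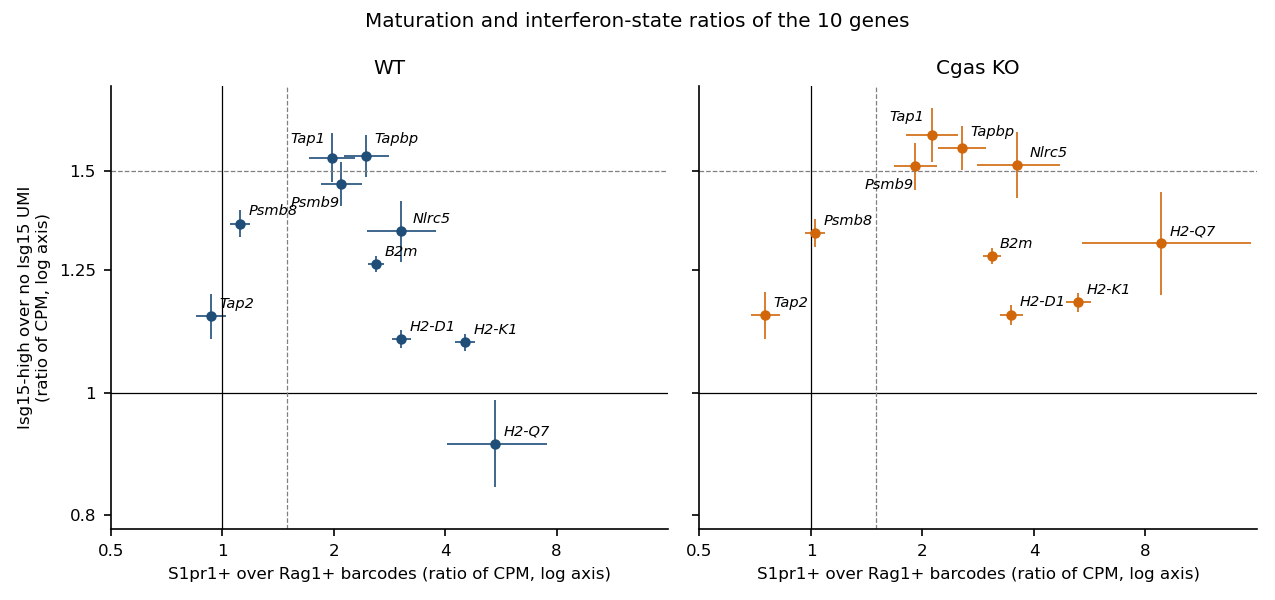
Ratio of each gene between S1pr1+ and Rag1+ barcodes (x, log axis) and between Isg15-high barcodes and barcodes with no Isg15 UMI (y, log axis) in WT and Cgas KO, with exact 95% intervals; dashed lines mark 1.5-fold. The heavy chains lie to the right and low, Tap1 and Tapbp lie highest, and H2-Q7 is below 1 on the y axis in WT (0.912) and above 1 in Cgas KO (1.31).

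H2-Q7 was the exception, with a ratio of 0.912 in WT (0.842 to 0.986) and 1.31 in Cgas KO (1.2 to 1.44). Within S1pr1+ barcodes of WT it stood at 115 CPM with no Isg15 UMI, 98.3 CPM with 1, 106 CPM with 2, 91.8 CPM with 3 to 5 and 78.0 CPM with 6 or more. In Cgas KO the same steps gave 66.1, 64.9, 66.8, 68.5 and 71.7 CPM. Its Cgas KO over WT ratio in these barcodes was 0.576 (0.529 to 0.628) with no Isg15 UMI and 0.920 (0.747 to 1.13) with 6 or more. Over the same steps Tap1 went from 166 to 212 CPM in WT and from 142 to 229 CPM in Cgas KO, and Psmb8 from 463 to 649 CPM and from 460.2 to 641 CPM. H2-K1 in S1pr1+ barcodes was at 2046 CPM with no Isg15 UMI and 1884 CPM with 6 or more in WT, and at 1720 and 1735 CPM in Cgas KO. In Itm2a+ S1pr1- barcodes it was at 989 and 1252 CPM in WT and at 826 and 1077 CPM in Cgas KO over those 2 steps. Its climb with Isg15 thus differed between the 2 maturation sets, a difference that was not tested.

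**Figure D3:**
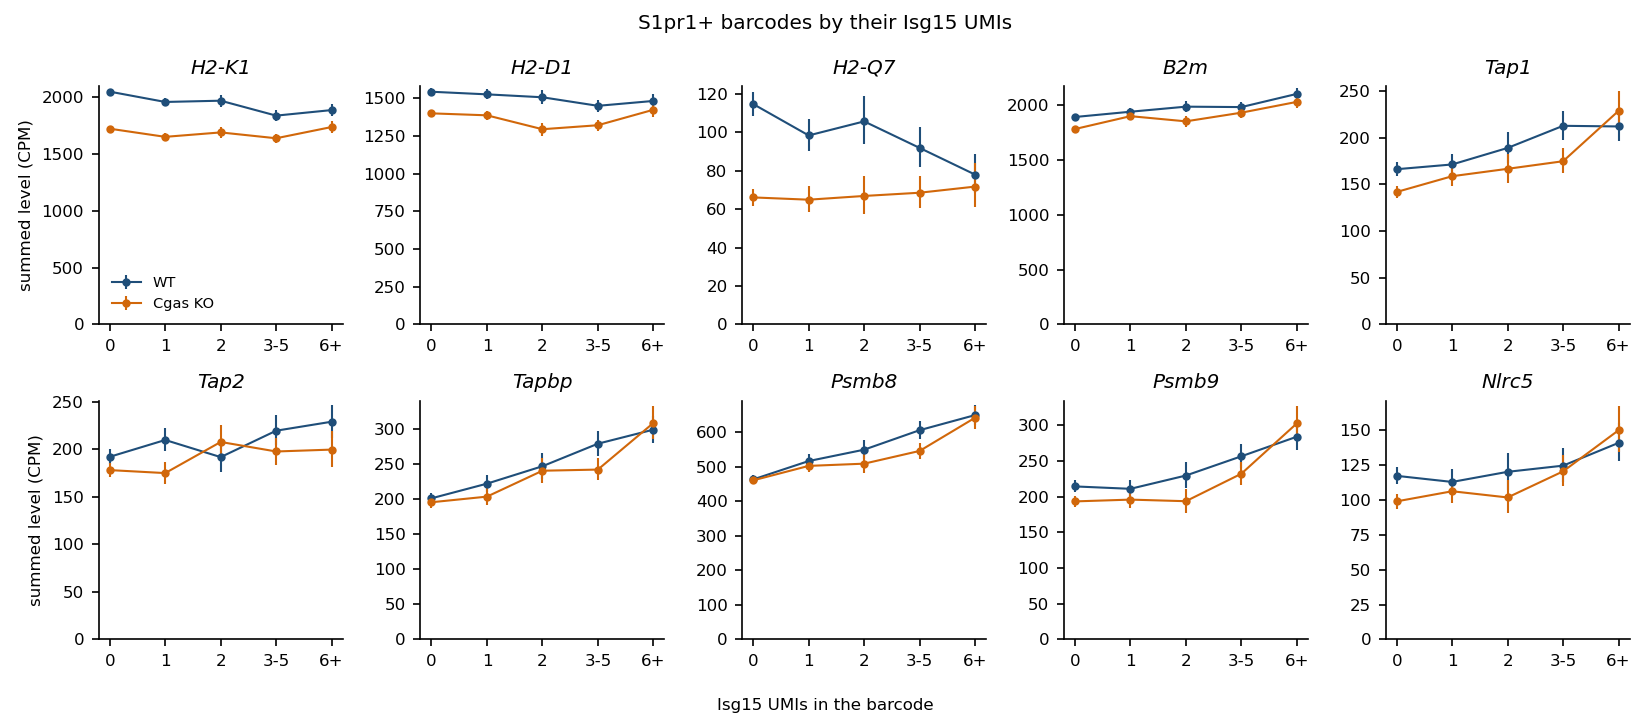
Level of each gene (CPM, linear axis from 0) in S1pr1+ barcodes grouped by their Isg15 UMIs, in WT (blue) and Cgas KO (orange), with exact 95% Poisson intervals. Tapbp, Psmb8 and Psmb9 are highest in the last group of both libraries, Tap1 is so in Cgas KO (229 CPM), and H2-Q7 is lowest there in WT (78.0 CPM).

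Of 11 other class I genes 1 passed 1.5-fold upward with Isg15 in WT and 2 in Cgas KO, 1 passed downward in each, and of 18 regulators 5 and 3 passed upward and 0 downward. Irf7 was 2.83-fold higher in Isg15-high barcodes of WT and 2.91-fold in those of Cgas KO, while Irf1 had ratios of 1.34 and 1.21. H2-T22, another nonclassical heavy chain gene, was at 1.48 and 1.57, Psmb10 at 1.54 and 1.48, and the constitutive core had no gene past 1.5-fold in either library.

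Foxp3+ barcodes held the highest heavy chain levels of the 6 sets. H2-K1 stood at 2188 CPM in WT against 1900.2 CPM in Cgas KO, H2-D1 at 1676 and 1609.9 CPM, and H2-Q7 at 141 CPM (479 UMIs) and 95.5 CPM (200 UMIs). Against barcodes with no Foxp3 UMI, 2 of 10 genes were at least 1.5-fold higher in WT (H2-K1 and H2-Q7), where 6.46% of 11983 measured genes passed, and 3 of 10 in Cgas KO (with H2-D1), where 7.19% of 12004 did. H2-Q7 rose 2.58-fold in both libraries (2.34 to 2.83 in WT, 2.22 to 2.98 in Cgas KO) and H2-K1 rose 1.60- and 1.61-fold; H2-D1 was at 1.41 and 1.51. Tap2 had ratios of 1.01 (0.940 to 1.09) and 0.901 (0.808 to 1.001), and Tapbp of 1.06 and 1.07. Foxp3+ barcodes were mostly S1pr1+ as well (67.5% in WT, 65.1% in Cgas KO), and S1pr1+ barcodes held H2-K1 at 1973 and 1692 CPM, so the comparison also sets more mature against less mature cells. The Treg marker list summed to 2326 and 2686 CPM in Foxp3+ barcodes, against 716 and 705 CPM over all kept barcodes. Foxp3 is itself in that list, which raises the sum in Foxp3+ barcodes.

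The Cd8 lineage barcodes did not stand out. None of the 10 genes was at least 1.5-fold higher than in barcodes with Cd4 and no Cd8 UMI, in WT (4.25% of 11138 measured genes) or in Cgas KO (3.26% of 11127). B2m was at 1696 against 1667 CPM in WT and at 1569 against 1551 CPM in Cgas KO. H2-K1 was lower, at ratios of 0.856 and 0.858, and H2-Q7 at 0.712 (0.641 to 0.790) and 0.764, while Psmb8 was at 1.09 and 1.08. Of the Cd8 lineage barcodes 58.7% and 57.4% were Itm2a+ S1pr1-. The double-positive list summed to 1550 and 1533 CPM in them. That list contains Cd8a and Cd8b1, the genes that define this set, so the sum is partly fixed by the rule. The samples are labelled CD4+, and barcodes whose Cd4 RNA was missed cannot be told apart from Cd8 lineage cells here.

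Between the genotypes, all 10 genes had a ratio below 1 over all kept barcodes, and 1 of them, H2-Q7, was at least 1.2-fold lower in Cgas KO. Of 13266 measured genes 5.83% were at least 1.2-fold lower and 6.07% at least 1.2-fold higher, and none of the 10 was higher. H2-Q7 fell from 58.5 CPM (56.7 to 60.2) to 38.6 CPM (37.3 to 40.1), a ratio of 0.661 (0.631 to 0.693). H2-K1 was at 1404 and 1201 CPM, a ratio of 0.856 (0.848 to 0.864), and Tap1 at 154 and 133 CPM, a ratio of 0.863 (0.840 to 0.887). The ratios were 0.889 for Nlrc5, 0.897 for H2-D1, 0.911 for Tap2, 0.923 for Psmb9, 0.933 for B2m and for Tapbp, and 0.960 for Psmb8 (0.946 to 0.974). Each interval excluded 1 as far as counting goes, and the spread between mice is not in it. The median log2 ratio of the 10 was -0.15, against 0.00 over all measured genes, and 49.2% of those were below 0. Among 3564 genes of 50 CPM or more, whose log2 ratios had an SD of 0.14, 1.40% were at or below H2-K1 and 1.74% at or below Tap1, while 21.5% were at or below Psmb8.

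**Figure D4:**
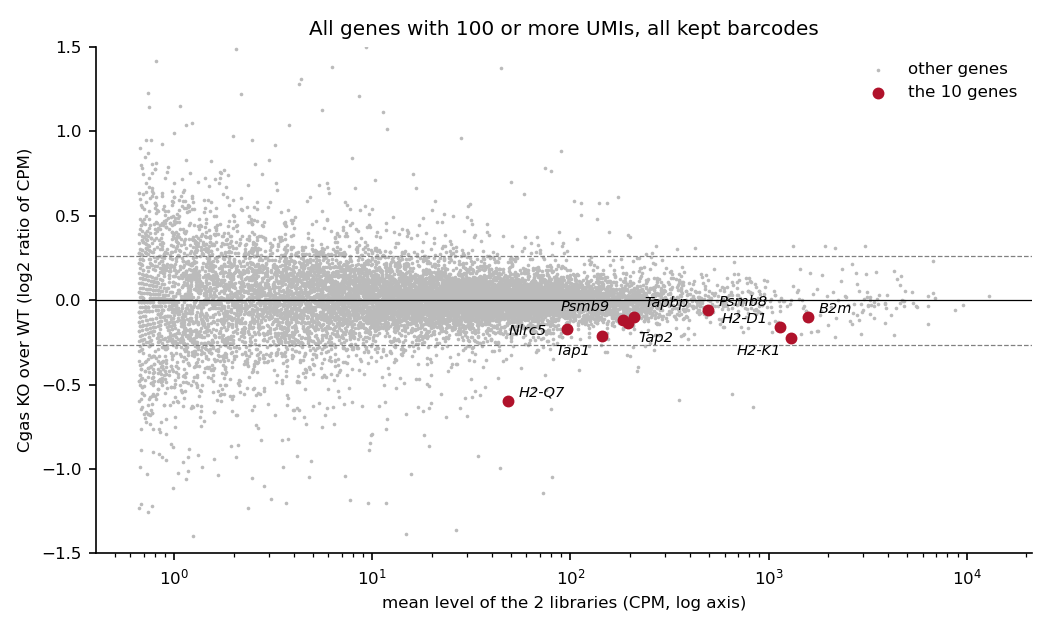
Log2 ratio of Cgas KO over WT against mean level (CPM, log axis) for 13228 genes with 100 or more UMIs over all kept barcodes; 38 more lie outside the axis. Dashed lines mark 1.2-fold. The 10 genes (red) are all below 0, and H2-Q7 alone of them is below the dashed line.

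The ratios were alike in most sets. In Itm2a+ S1pr1- barcodes 1 of 10 genes (H2-Q7, 0.714) was at least 1.2-fold lower, against 5.37% of 12031 measured genes lower and 5.9% higher. In S1pr1+ barcodes it was again H2-Q7 alone (0.647, 0.609 to 0.686), against 5.37% of 11294 genes lower and 5.67% higher. In Cd8 lineage barcodes it was H2-Q7 alone (0.676), against 6.97% of 9621 genes lower and 7.39% higher. After thinning the count was 2 in Itm2a+ S1pr1- and in S1pr1+ barcodes and 3 in Cd8 lineage barcodes, where it was 4 without barcodes that had an Isg15 UMI. In Isg15-high barcodes 0 of 10 passed, against 5.9% of 10458 genes lower and 7.19% higher, and H2-Q7 was at 54.8 and 47.2 CPM, a ratio of 0.861 (0.777 to 0.953) that turned to 1.11 after thinning. The interferon list summed to 1818 and 1815 CPM in Isg15-high barcodes and to 701 and 635 CPM over all kept barcodes. Isg15, which defines the Isg15-high set, is itself in that list, which raises the sum there. In barcodes with no Isg15 UMI all 10 genes were below 1 as well, from 0.598 for H2-Q7 (0.559 to 0.639) to 0.978 for Psmb8 (0.957 to 0.999), with H2-K1 at 0.846, Tap1 at 0.857 and Tapbp at 0.949.

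The counted UMIs of H2-Q7 and H2-Q6 together gave 63.2 CPM in WT against 41.0 CPM in Cgas KO, a ratio of 0.649 (0.620 to 0.680). How reads that match several genes were counted is not given, so the sum cannot settle how they bear on this ratio. H2-Q6 alone was at 0.504 (0.419 to 0.606). After thinning to 2000 UMIs, 17.8% of WT S1pr1+ barcodes (16.7 to 18.9) and 10.9% of Cgas KO S1pr1+ barcodes (10.0 to 11.8) had an H2-Q7 UMI, against 1.8% and 1.4% of Rag1+ barcodes. Unthinned these were 35.2% and 23.5% of S1pr1+ barcodes. In free RNA H2-Q7 stood at 79.1 CPM in WT against 45.9 CPM in Cgas KO, and H2-K1 was lower in Cgas KO there too. B2m was at 1364 and 1026 CPM and Psmb9 at 217 and 173 CPM in free RNA. H2-D1, Tap1, Tap2 and Tapbp were lower in Cgas KO there as well. Only Nlrc5, at 121 and 140.1 CPM, and Psmb8, at 501 and 508 CPM, were not. The part of free RNA in the ratios was not tested.

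Rag1+ and Foxp3+ barcodes, the smallest sets, held more genes past the fold. In Rag1+ barcodes 5 of 9 measured genes (H2-K1, H2-D1, B2m, Tap1 and Nlrc5) were at least 1.2-fold lower in Cgas KO, against 14.4% of 6521 genes lower and 12.8% higher. H2-K1 was at 436 and 321 CPM there, a ratio of 0.738 (0.668 to 0.814), while Psmb8 was at 1.04 (0.958 to 1.14), Psmb9 at 0.998 and Tap2 at 1.13 (0.996 to 1.28). H2-Q7 had 59 UMIs there in the 2 libraries together and was not measured. The count was 1 after thinning or with each barcode weighed equally, 2 without barcodes that had an Isg15 UMI, 3 without the 2% deepest barcodes, and 3 without barcodes that had UMIs of antigen-presenting cell genes, where B2m turned to a log2 ratio of 0.077. In Foxp3+ barcodes 3 of 10 genes (H2-Q7, 0.679, and 0.428 after thinning; Tap2, 0.811; Psmb9, 0.789) were at least 1.2-fold lower, against 10.9% of 6837 genes lower and 9.76% higher, and H2-D1 was at 0.960 (0.920 to 1.002); without barcodes that had an Isg15 UMI the count was 5. In the same barcodes the interferon list summed to 768 CPM in WT against 586 CPM in Cgas KO and the dendritic or myeloid list (9 genes, with Xcr1 and Siglech at 0 in both libraries and Itgax at 0 in Cgas KO) to 304 and 142 CPM, and their part in these ratios was not tested.

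**Figure D5:**
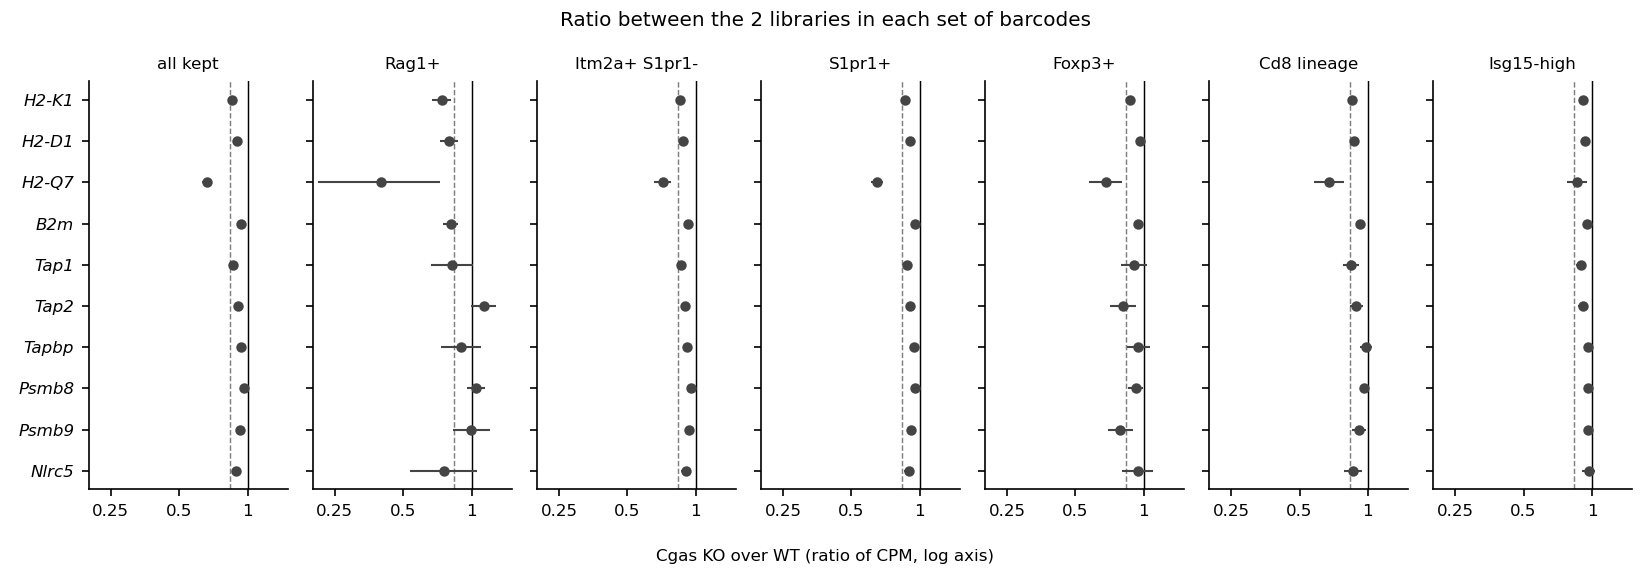
Ratio of Cgas KO over WT (log axis) for each gene over all kept barcodes and in 6 sets, with exact 95% intervals; the solid line is 1 and the dashed line 1.2-fold lower. H2-Q7 lies left of the dashed line in each panel except Isg15-high (0.861).

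Other genes of the pathway were compared in the same way. Of 11 other class I genes measured over all kept barcodes, 10 were below 1, and 1 of these, H2-Q6, was at least 1.2-fold lower. H2-T23 was at 0.854 (0.840 to 0.868) and H2-Q4 at 0.887. None of 13 loading and trimming genes, 6 immunoproteasome and activator genes or 14 constitutive core genes passed 1.2-fold; Calr, the gene for the chaperone calreticulin, was at 0.861, Psme2 at 0.957 and Psmb1 at 0.948. Of 18 regulators 1 passed, Irf8 at 0.735 (575 and 426 UMIs). Irf7 was at 132 and 115 CPM, a ratio of 0.872. Isg15 was at 243 and 232 CPM, a ratio of 0.952 (0.933 to 0.972). The dendritic or myeloid list, which includes MHC class II genes, summed to 179 CPM in WT against 162 CPM in Cgas KO over all kept barcodes, and the erythroid list to 2.11 and 70.3 CPM. The erythroid list was uneven between sets, at 1.86 and 188 CPM in S1pr1+ barcodes and at 2.18 and 3.88 CPM in Itm2a+ S1pr1- barcodes.

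Of the 10 genes 8 lie in 1 stretch of chromosome 17, from 33919478 to 35443773. Of 60 other measured genes in that stretch 7 were at least 1.2-fold lower in Cgas KO (H2-Aa, H2-Ab1, H2-Eb1, H2-Q6, Hspa1a, Hspa1b and Notch4) and 1 higher (Tnf), and 44 were below 1, with a median log2 ratio of -0.06. Over all measured genes 5.83% were lower, 6.07% higher and 49.2% below 1, and H2-Aa, H2-Ab1 and H2-Eb1 are class II genes of antigen-presenting cells, whose part in the count was not tested. B2m and Nlrc5, which lie on chromosomes 2 and 8, had ratios of 0.933 and 0.889.

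Over the 12 values (6 sets in 2 libraries) most of the genes had alike patterns, which is a description over overlapping sets that share 2 libraries. Pearson's r with the mean pattern of the 10 was 0.986 for Tap1, 0.982 for Psmb9, 0.967 for Nlrc5, 0.957 for B2m, 0.954 for H2-K1, 0.948 for H2-D1, 0.931 for Tapbp, 0.901 for H2-Q7, 0.799 for Psmb8 and -0.327 for Tap2. Each gene is itself part of that mean, which raises its r. Between pairs, H2-K1 and H2-D1 had r = 0.996, B2m and Nlrc5 0.997, and Tap1 and its partner Tap2 -0.350. Among 4684 genes the 5 closest to the mean pattern were H2-T22 (0.990), Gbp7 (0.978), H2-T23 (0.974), 1600014C10Rik (0.970) and Irgm1 (0.965); Gbp7 and Irgm1 belong to families of interferon-induced GTPases. H2-T22 went from 99.5 to 167 and 246 CPM along maturation in WT and from 93.4 to 158 and 224 CPM in Cgas KO.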

How the data were processed

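Per the labels' protocols, sorted thymocytes were loaded on a droplet controller and transcriptome libraries were made with a 3′ kit. The files hold the authors' deposited UMI counts per gene and barcode, unfiltered and not normalized. The file headers name Cell Ranger 8.0.1, whereas Cell Ranger 7.0 stands in the submitters' processing notes, beside Seurat 5.1.0 and mm10 as the build; this difference could not be resolved. Neither the annotation nor the handling of reads that match several genes is given in the sources used here. The 2 TCR libraries were not used.

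Barcodes with at least 2000 UMIs, 500 genes and at most 10% mitochondrial UMIs were kept, which lost 1 and 3 barcodes for too few genes and 0 for mitochondrial UMIs. They hold 88.5% of the 84763106 UMIs of WT and 86.6% of the 87310091 UMIs of Cgas KO. Doublets were not removed, and an alternative leaves out the deepest barcodes. UMIs were summed per library and set of barcodes and given as CPM with exact Poisson intervals; ratios have exact conditional intervals and shares exact Clopper-Pearson intervals, all at 95%. PCR duplicates are collapsed by UMI, and the intervals cover counting error only. With 1 library per genotype no test was made: a gene with at least 100 UMIs in the 2 groups together was counted as past a fold of 1.2 between genotypes or 1.5 between sets. The 1.2-fold count and the ratio intervals were also run on simulated Poisson counts. These were drawn from the WT levels over all kept barcodes, with known changes of 1.5- and 2-fold in some genes. The simulated counts had no spread between mice and no sets of barcodes, so they bear on the arithmetic only. Python 3.11.15, numpy 2.4.6, scipy 1.17.1 and pandas 2.3.3 were used.

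The genes, sets and pathway lists were chosen with earlier results of these data known. Besides the 10 genes, up to 4 genes of each of 6 pathway lists were to be named for the largest genotype ratio and up to 4 for the largest S1pr1+ over Rag1+ ratio in WT, with the 5 genes closest in pattern over log2(CPM + 1) values and the genes that define the sets; Psmb1, Psme2, Psmb5, Erap1 and Irf1 were named after their values were seen where they fall outside this rule. Positions and promoters come from RefSeq on GRCm38.p6 (mm10), and motifs were searched as exact strings on both strands. Results for 1 regulator gene are not reported here.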

Additional observations from a re-analysis of the deposited data

Results flagged for a closer look

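Several ratios pointed in opposite directions in the 2 libraries or in different sets, and none of these differences was tested, since each genotype has 1 library. H2-Q7 was below 1 in Isg15-high over Isg15-negative barcodes of WT (0.912) and above 1 in Cgas KO (1.31), and both intervals (0.842 to 0.986 and 1.2 to 1.44) excluded 1. Tap2 was at 1.01 in Foxp3+ over Foxp3-negative barcodes of WT and at 0.901 in Cgas KO, and both intervals included 1. Tapbp was at 0.996 in Cd8 lineage over Cd4 only barcodes of WT and at 1.04 in Cgas KO, again with intervals that included 1. In Rag1+ barcodes Tap2 was at 1.13 and Psmb8 at 1.04 in Cgas KO over WT, whereas both were below 1 in the other 5 sets; the intervals in Rag1+ barcodes (0.996 to 1.28 and 0.958 to 1.14) included 1.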

How the results depend on the processing

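Ratios and counts were recomputed under 14 alternatives. Under thinning the sets were drawn again from the thinned counts, so a shift there can come from other barcodes as well as from depth. Of 1770 recomputed ratios of the 10 genes, 1420 stayed within the counting interval. In all 76 changed sign, 24 of them between genotypes (12 in Rag1+, 7 in Isg15-high, 2 in Foxp3+, 2 in Cd8 lineage and 1 in S1pr1+ barcodes) and 52 between sets. In 2 of these the ratio had been past the fold, both in Rag1+ barcodes between genotypes, Nlrc5 at a log2 ratio of 0.13 after thinning to 2000 UMIs and B2m at 0.077 without barcodes with antigen-presenting cell RNA; the cause was not tested. All 120 genotype ratios over all kept barcodes stayed below 0 on the log2 scale. Of 207 recomputed counts, 186 stayed within 1.5 times. After thinning, genes at least 1.2-fold lower in Cgas KO numbered 1 in Rag1+, 2 in Itm2a+ S1pr1-, 2 in S1pr1+ and 3 in Cd8 lineage barcodes, and 4 genes were 1.5-fold higher in Isg15-high barcodes of WT. With each barcode weighed the same, 1 was lower in Rag1+ barcodes. Without barcodes with an Isg15 UMI, 2 were lower in Rag1+, 5 in Foxp3+ and 4 in Cd8 lineage barcodes. Without antigen-presenting cell RNA, 3 were lower in Rag1+, 2 in Cd8 lineage and 1 in Isg15-high barcodes, and without the deepest barcodes 3 in Rag1+. With the larger folds of 1.5 and 2, counts were 0 between genotypes in Rag1+, Itm2a+ S1pr1-, Foxp3+ and Cd8 lineage barcodes, 0 for Isg15-high in both libraries, and 1 for Foxp3+ in WT and 1 in Cgas KO. The larger folds and the absence of a filter on low genes bear on counts and not on ratios. Scaling by the median ratio moved the genotype ratios over all kept barcodes by 0.002 on the log2 scale. Every other comparison was shifted by its own median, and some of these shifts were larger. For S1pr1+ over Rag1+ the median log2 ratio of all measured genes was -0.18 in WT and -0.15 in Cgas KO. No paired analysis was possible because each genotype has 1 library, and there was no replicate to leave out. Depth limits H2-Q7 and Nlrc5 in Rag1+ barcodes most.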
